A study of Homo sapiens with 7 samples.

Results

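Genes of cholesterol synthesis, of its control by the sterol regulatory element-binding proteins (SREBPs) and of the fatty acid pathway under the same control were followed in SKOV3 cells, an established human line that the labels class as serous ovarian cancer (the cell line field gives SKOV3 for all 7 samples, while the source names count upward from SKOV3 to SKOV9). The set was a list of 39 genes taken from knowledge of these pathways and chosen with earlier results of these data known. Each gene was read from its brightest transcript cluster (a group of probes for 1 transcript locus) that carries a single symbol. Of the 39, 35 were measured among 17958 genes. ACAT2, FDFT1, HSD17B7 and NR1H2 were not analysed here. The study measured total RNA on 7 Affymetrix Human Gene 1.1 ST arrays, and values are log2 signals, so that 1 unit is a doubling. Stable clones made with lentivirus and kept under puromycin formed 3 groups, with 1 array per clone: 3 clones labelled CtBP1 knockdown, 2 CtBP2 knockdown clones and 2 scramble control clones. CtBP1 and CtBP2 are co-repressors of transcription that recruit enzymes acting on histones. Per the labels the knockdown was checked by western blot, and the hairpin sequences are not given in the sources used here. Each replicate is 1 clone on 1 array, so the spread within a group holds both clonal and technical differences.

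When sterol in the endoplasmic reticulum (ER) is scarce, the escort protein SCAP carries the SREBPs to the Golgi, where they are cut and released to the nucleus. There they bind sterol regulatory elements and raise transcription of nearly every enzyme from acetyl-CoA to cholesterol. INSIG proteins hold SCAP in the ER when sterol is plentiful, and INSIG1 is itself an SREBP target. SREBP-2, from SREBF2, is best known for the sterol enzymes, and SREBP-1, from SREBF1, for fatty acid synthesis and desaturation. Liver X receptors answer to excess sterol by raising the efflux pumps ABCA1 and ABCG1 and the ubiquitin ligase MYLIP. CtBP senses NADH and takes its name from the adenoviral protein it binds.

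The labels were checked first. The CTBP2 signal was 4.64 and 4.22 in the CtBP2 knockdown clones, against 5.70 and 6.14 in the scramble clones (limma adjusted p = 0.18). CTBP1 had 5.11, 6.13 and 6.13 in the clones labelled CtBP1 knockdown, against 5.69 and 6.37 in the scramble clones, so the groups overlapped at the RNA level (limma adjusted p = 0.849), and these clones are called by their label throughout. Of 7 epithelial markers, the median lay between 6.38 and 7.49 on the arrays, and single signals ran from 2.92 to 9.64. The 13 markers of leukocytes, fibroblasts, endothelium and liver had single signals between 1.09 and 3.13, so the 2 ranges overlapped at their ends. Scramble control 1 stood apart from the rest. Over all genes its correlation with another array ran from 0.926 to 0.941, and its interquartile range was 2.20, against 2.85 to 3.15 on the other 6. The main results that rest on scramble are therefore also given with each control apart.

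The scramble clones, the 2 controls, lay far apart from each other on the sterol genes. The median over the 35 genes, each relative to its own mean over the 7 arrays, was 0.11, -0.13 and 0.01 in the clones labelled CtBP1 knockdown and -0.01 and 0.01 in the CtBP2 knockdown clones. In scramble control 1 it was -0.85, and in scramble control 2 it was 0.84. The knockdown clones thus had the controls on either side of them. Most arrays in each gene's mean are knockdown arrays, so that their medians lie near 0 is partly built in. Between the controls (scramble control 1 minus scramble control 2) the median difference was -1.81 over the 35 genes and -0.02 over all genes. With the dimmest 25% of all genes left out, it was -1.88 over 34 of the 35 and -0.24 over all genes kept. These values set 1 array against 1, with no test.

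Counts show the same order of arrays. Scramble control 2 was above all 6 other arrays for 25 of the 35 genes (71.4%), and this held for 12.9% of all genes tested. Scramble control 1 was below all 6 other arrays for 26 (74.3%), and this held for 32.3% of all genes. For 21 (60%) the 5 knockdown clones lay between scramble control 1 below and scramble control 2 above, against 6.46% of all genes. The 35 genes were brighter as a set, with array medians of 4.31 to 6.12, against 3.18 to 3.29 for all genes. The shares of all genes were not matched for level, and dim genes may not show a gap. After quantile normalization, median centring, or centring and scaling of the columns, scramble control 2 was highest for 26 or 27 of the 35, while the share of all genes ran from 15.8% to 23.8%. In the same order of settings, scramble control 1 was lowest for 25, 33 and 26 of the 35. Among all genes that share rose to 39%, 57.5% and 53.4%. The knockdown clones lay between the controls for 21, 25 and 22 of the 35, against 7.47%, 15.3% and 13.5% of all genes. Other gene groups also differed between the controls. The 18 dividing-cell genes had a relative median of -1.58 on scramble control 1 and 0.53 on scramble control 2, with -0.01 to 0.46 in the knockdown clones, and 10 amino acid stress genes had 0.85 and 0.15 on the controls, with -0.50 to 0.02 in the knockdown clones. Their part in the values of the sterol genes was not tested. As each array holds the RNA of many cells, fewer cells of a type and less RNA per cell cannot be told apart.

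**Figure D1:**
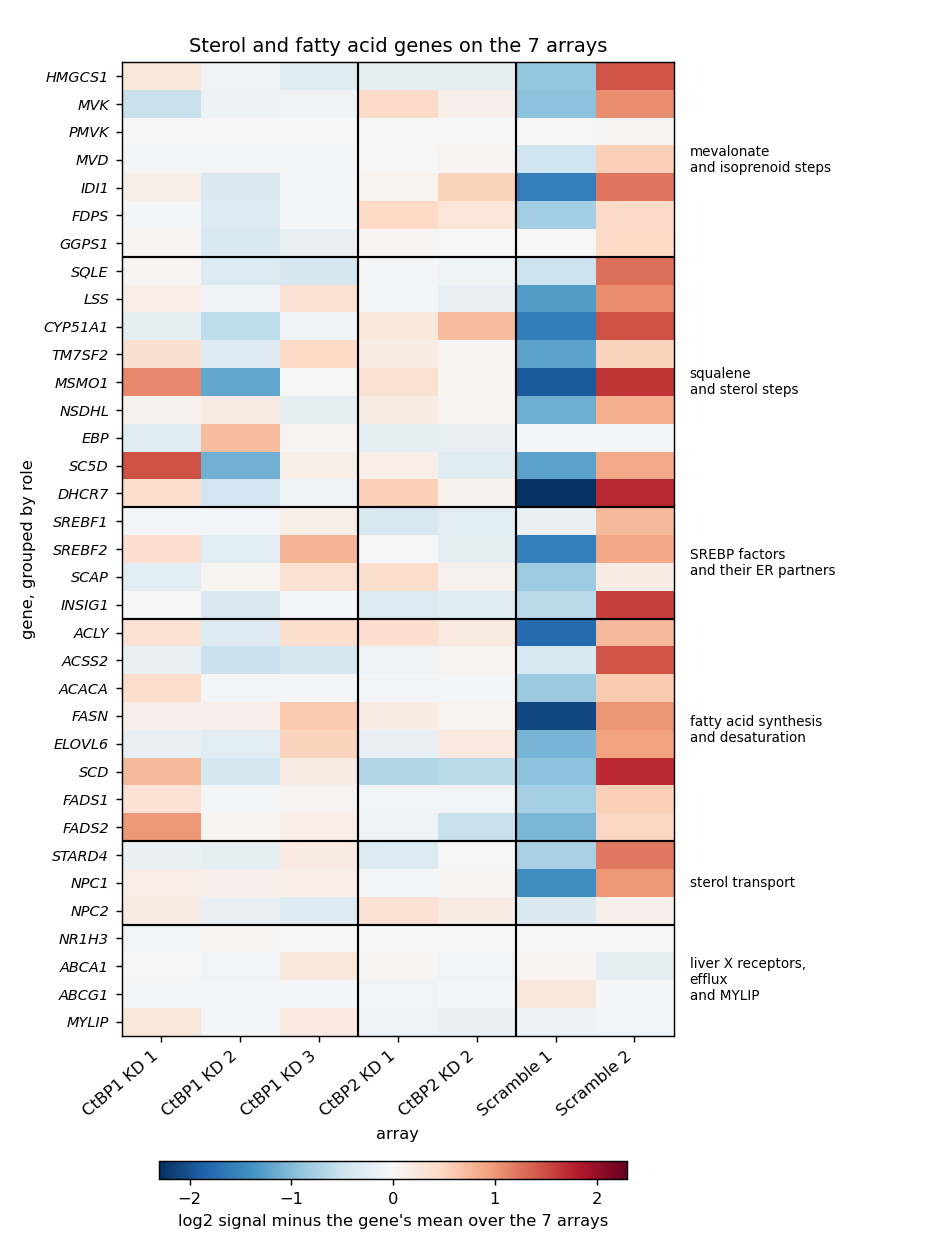
Heat map of 35 genes (rows, grouped by role, black lines between roles) on the 7 arrays (columns, black lines between groups), coloured by the log2 signal minus the gene's mean over the 7 arrays. Most rows are blue on scramble control 1 and red on scramble control 2, while the rows of the liver X receptor group stay pale.

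The promoters of 5 of the 24 genes with a control gap over 1 log2 unit are shown. Each is the 250 bases before the gene start in RefSeq on GRCh38.p14, 5′ to 3′ along the gene. These are hand-picked examples and do not show how often the 35 genes hold a motif. SREBF2 and INSIG1 control the pathway, MSMO1 is a sterol enzyme, SCD desaturates fatty acids and STARD4 carries sterol between membranes. Capitals mark CACNCCAC, a loose form of the core of a sterol regulatory element, and CCAAT, the letters bound by NF-Y, a factor that acts with SREBPs, each on either strand. The matches shown do not overlap.
SREBF2, chr22:41832855-41833104, plus strand: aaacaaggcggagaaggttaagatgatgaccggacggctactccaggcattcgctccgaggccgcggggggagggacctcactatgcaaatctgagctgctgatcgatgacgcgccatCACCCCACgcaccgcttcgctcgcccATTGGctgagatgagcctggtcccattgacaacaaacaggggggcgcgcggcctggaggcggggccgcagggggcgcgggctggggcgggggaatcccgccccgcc
INSIG1, chr7:155297628-155297877, plus strand: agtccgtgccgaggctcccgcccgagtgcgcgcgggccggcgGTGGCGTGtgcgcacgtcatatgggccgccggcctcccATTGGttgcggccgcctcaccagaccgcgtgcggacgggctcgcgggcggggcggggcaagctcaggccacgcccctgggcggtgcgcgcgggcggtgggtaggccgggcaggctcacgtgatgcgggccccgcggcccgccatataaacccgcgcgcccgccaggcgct
MSMO1, chr4:165327419-165327668, plus strand: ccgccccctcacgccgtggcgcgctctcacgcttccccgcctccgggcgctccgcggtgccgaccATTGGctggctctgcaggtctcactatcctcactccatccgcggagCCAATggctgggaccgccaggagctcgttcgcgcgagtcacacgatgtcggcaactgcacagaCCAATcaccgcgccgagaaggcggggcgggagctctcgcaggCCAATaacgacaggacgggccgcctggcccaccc
SCD, chr10:100346983-100347232, plus strand: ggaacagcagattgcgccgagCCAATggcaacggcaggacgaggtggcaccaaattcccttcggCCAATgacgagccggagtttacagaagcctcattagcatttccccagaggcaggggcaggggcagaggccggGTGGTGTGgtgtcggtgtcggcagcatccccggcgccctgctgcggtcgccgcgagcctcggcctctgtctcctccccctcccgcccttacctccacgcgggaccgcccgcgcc
STARD4, chr5:111512536-111512785, minus strand: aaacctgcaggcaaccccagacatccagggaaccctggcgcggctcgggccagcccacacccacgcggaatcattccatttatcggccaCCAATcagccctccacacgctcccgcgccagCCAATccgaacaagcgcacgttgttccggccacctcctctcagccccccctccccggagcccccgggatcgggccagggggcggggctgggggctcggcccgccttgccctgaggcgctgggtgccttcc

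In SREBF2 the CACNCCAC match begins 132 bases before the start, and a CCAAT on the opposite strand begins 106 bases before it. INSIG1 and SCD also hold a match to both patterns, and MSMO1 and STARD4 hold only CCAAT, with 4 and 2 matches. Other forms of a sterol regulatory element were not searched for, so the marked stretch need not be the element a gene uses. RefSeq promoters were found for 32 of the 35 genes, in 48 windows of 250 bases. CACNCCAC was in 7 of the 48 windows (14.6%, against 4.87% of the 35116 windows of the table), which belong to ABCA1, ACACA, IDI1, INSIG1, SC5D, SCD and SREBF2. CCAAT was in 27 (56.2%, against 32% of the table), and CACGTG, an E-box that SREBPs can also bind, in 5 (10.4%, against 6.34%). The motifs were chosen with their matches known, so these shares are a description and no test of enrichment. A match is a run of letters in this window and does not show binding.

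Among the factors and their partners, SREBF2 followed the order of the controls. It had log2 signals of 6.07, 5.43 and 6.46 in the clones labelled CtBP1 knockdown and 5.67 and 5.47 in the CtBP2 knockdown clones, against 4.11 and 6.57 on scramble controls 1 and 2. The gap between the controls was thus 5.48-fold, and the 5 knockdown clones lay inside it. SREBF1 had 3.27, 3.27 and 3.43 in the clones labelled CtBP1 knockdown and 2.92 and 3.03 in the CtBP2 knockdown clones, against 3.13 and 4.04 in the scramble clones. Its CtBP2 knockdown signals were the lowest of the 7. SCAP, the escort, had 5.14, 5.45 and 5.74 in the clones labelled CtBP1 knockdown and 5.80 and 5.48 in the CtBP2 knockdown clones, against 4.57 and 5.56 in the scramble clones. Here the knockdown clones lay around scramble control 2.

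INSIG1, the retention factor and target, lay near the other control. It had 5.22, 4.91 and 5.19 in the clones labelled CtBP1 knockdown and 4.92 and 4.96 in the CtBP2 knockdown clones, against 4.61 and 6.80 in the scramble clones. The knockdown clones lay within a range of 0.32 of one another and close to scramble control 1. With scramble control 1 at 0% and scramble control 2 at 100% of the gap on the log2 scale, the mean of INSIG1 stood at 22.6% for the clones labelled CtBP1 knockdown and 14.9% for the CtBP2 knockdown clones.

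In the mevalonate steps, which turn acetyl-CoA into isoprenoid units, HMGCS1, the synthase of HMG-CoA, had 5.93, 5.61 and 5.42 in the clones labelled CtBP1 knockdown and 5.49 and 5.47 in the CtBP2 knockdown clones, against 4.80 and 7.14 in the scramble clones. IDI1, which isomerises isopentenyl diphosphate, had 6.02, 5.55 and 5.85 in the clones labelled CtBP1 knockdown and 5.98 and 6.40 in the CtBP2 knockdown clones, against 4.31 and 7.13 in the scramble clones. For these genes scramble control 2 was above every knockdown array and scramble control 1 below every one. MVK, the mevalonate kinase, had 2.96, 3.34 and 3.39 in the clones labelled CtBP1 knockdown and 3.92 and 3.59 in the CtBP2 knockdown clones, against 2.53 and 4.55 in the scramble clones. MVD, the decarboxylase, ran from 4.40 to 4.52 in the 5 knockdown clones, against 3.999 and 4.99 in the scramble clones. FDPS, which makes farnesyl diphosphate, had 4.59, 4.29 and 4.59 in the clones labelled CtBP1 knockdown and 5.08 and 4.89 in the CtBP2 knockdown clones, against 3.83 and 5.06 in the scramble clones, so its CtBP2 knockdown signals were near scramble control 2. GGPS1, on the side branch to geranylgeranyl diphosphate, differed less, with 3.66 to 4.05 in the knockdown clones, against 4.02 and 4.48 in the scramble clones. PMVK, the phosphomevalonate kinase, stayed within 0.03 on all 7 arrays, with the same value on several.

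Among the steps from squalene to cholesterol were several of the widest gaps between the controls. DHCR7, which reduces 7-dehydrocholesterol in the last stretch of the pathway, had 5.80, 4.96 and 5.32 in the clones labelled CtBP1 knockdown and 5.94 and 5.49 in the CtBP2 knockdown clones, against 3.13 and 7.14 in the scramble clones, a 16.1-fold gap between controls. CYP51A1, the lanosterol demethylase, had 5.76, 5.38 and 5.88 in the clones labelled CtBP1 knockdown and 6.21 and 6.68 in the CtBP2 knockdown clones, against 4.37 and 7.43 in the scramble clones. A second CYP51A1 cluster kept this order: its CtBP2 knockdown signals of 5.07 and 5.62 were above the 4.26, 4.40 and 4.77 of the clones labelled CtBP1 knockdown, with 2.95 and 6.18 in the scramble clones. SQLE, the squalene epoxidase and a rate-limiting enzyme, had 6.81, 6.44 and 6.38 in the clones labelled CtBP1 knockdown and 6.72 and 6.67 in the CtBP2 knockdown clones, against 6.30 and 8.03 in the scramble clones. Its knockdown signals were close to scramble control 1, as for INSIG1. LSS, the lanosterol synthase, had 5.12, 4.88 and 5.31 in the clones labelled CtBP1 knockdown and 4.92 and 4.77 in the CtBP2 knockdown clones, against 3.68 and 6.03 in the scramble clones. NSDHL, a sterol dehydrogenase, ran from 6.68 to 7.09 in the knockdown clones, against 5.78 and 7.74 in the scramble clones, and TM7SF2, a sterol reductase, from 3.82 to 4.57, against 2.90 and 4.62. EBP, the sterol isomerase, had the same value of 3.18 in both scramble clones, and 3.94 in clone 2 labelled CtBP1 knockdown was its highest signal.

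MSMO1 and SC5D, sterol methyl oxidase and sterol desaturase, spread most among the 3 clones labelled CtBP1 knockdown. MSMO1 had 8.70, 6.40 and 7.58 in the clones labelled CtBP1 knockdown and 7.96 and 7.64 in the CtBP2 knockdown clones, against 5.67 and 9.23 in the scramble clones. SC5D had 9.78, 7.22 and 8.46 in the clones labelled CtBP1 knockdown and 8.49 and 8.05 in the CtBP2 knockdown clones, against 7.10 and 9.20 in the scramble clones. The 3 clones labelled CtBP1 knockdown therefore ranged over 2.29 and 2.56 log2 units, with clone 1 high and clone 2 low for both genes, while the CtBP2 knockdown clones differed by 0.32 and 0.44. HMGCS1, LSS and INSIG1 ranged over 0.52, 0.43 and 0.32 on the same 3 arrays.

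All 8 fatty acid genes were lower in scramble control 1 than in scramble control 2, with the knockdown means at a median of 66.6% of that gap for the clones labelled CtBP1 knockdown and 53.9% for the CtBP2 knockdown clones. FASN, the fatty acid synthase, had 5.87, 5.87 and 6.36 in the clones labelled CtBP1 knockdown and 5.93 and 5.83 in the CtBP2 knockdown clones, against 3.66 and 6.76 in the scramble clones. ACLY, which makes cytosolic acetyl-CoA from citrate, had 7.56, 6.93 and 7.64 in the clones labelled CtBP1 knockdown and 7.62 and 7.43 in the CtBP2 knockdown clones, against 5.44 and 7.98 in the scramble clones. FASN and ACLY knockdown means stood at 71.6% to 82% of the control gap. ACACA, the acetyl-CoA carboxylase, ran from 5.44 to 5.91 in the knockdown clones, against 4.64 and 6.10 in the scramble clones, and ELOVL6, a fatty acid elongase, from 3.30 to 4.07, against 2.48 and 4.47.

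ACSS2, which makes acetyl-CoA from acetate, was placed differently from ACLY. It had 4.50, 4.17 and 4.27 in the clones labelled CtBP1 knockdown and 4.60 and 4.75 in the CtBP2 knockdown clones, against 4.31 and 6.12 in the scramble clones, which puts the knockdown means at 0.125% and 20% of the gap. SCD, the stearoyl-CoA desaturase, had 6.99, 5.85 and 6.42 in the clones labelled CtBP1 knockdown and 5.58 and 5.64 in the CtBP2 knockdown clones, against 5.31 and 7.98 in the scramble clones. The CtBP2 knockdown signals of SCD were close to scramble control 1, while a second, dim SCD cluster had 1.11 to 1.56 on the 7 arrays. FADS2, a desaturase of polyunsaturated fatty acids, had 7.40, 6.45 and 6.55 in the clones labelled CtBP1 knockdown and 6.31 and 5.90 in the CtBP2 knockdown clones, against 5.35 and 6.88 in the scramble clones. Its neighbour in function, FADS1, ran from 7.37 to 7.74 in the clones labelled CtBP1 knockdown and had 7.34 in both CtBP2 knockdown clones, against 6.65 and 7.95 in the scramble clones.

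In sterol transport, NPC1, which exports cholesterol from lysosomes, had 6.37, 6.35 and 6.37 in the clones labelled CtBP1 knockdown and 6.20 and 6.24 in the CtBP2 knockdown clones, against 4.80 and 7.23 in the scramble clones. The 3 clones labelled CtBP1 knockdown lay within 0.03 of each other, while the controls differed 5.37-fold. STARD4 had 2.81, 2.74 and 3.14 in the clones labelled CtBP1 knockdown and 2.64 and 2.95 in the CtBP2 knockdown clones, against 2.20 and 4.17 in the scramble clones. NPC2, the soluble partner of NPC1, had 7.06, 6.69 and 6.59 in the clones labelled CtBP1 knockdown and 7.21 and 7.06 in the CtBP2 knockdown clones, against 6.56 and 6.99 in the scramble clones, a much smaller spread than that of NPC1.

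The liver X receptor group did not share the order of the controls. NR1H3, the receptor LXR-alpha, had 2.37 to 2.46 on all 7 arrays. ABCA1, the cholesterol efflux pump, had 4.64, 4.59 and 4.91 in the clones labelled CtBP1 knockdown and 4.69 and 4.59 in the CtBP2 knockdown clones, against 4.69 and 4.45 in the scramble clones. ABCG1, a second efflux pump, had 1.79 to 1.81 in the 5 knockdown clones, against 2.10 and 1.81 in the scramble clones. NR1H3 and ABCG1 were dim, with mean levels above those of only 34.4% and 14.8% of all genes. At such levels a gap between the controls may not show. MYLIP, the ligase that marks lipoprotein receptors for degradation, had 3.82, 3.53 and 3.78 in the clones labelled CtBP1 knockdown and 3.46 and 3.41 in the CtBP2 knockdown clones, against 3.44 and 3.50 in the scramble clones. The median difference between the controls over these 4 genes was 0.12, against -2.10 over the 9 measured squalene and sterol genes and -1.90 over the 8 fatty acid genes.

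**Figure D2:**
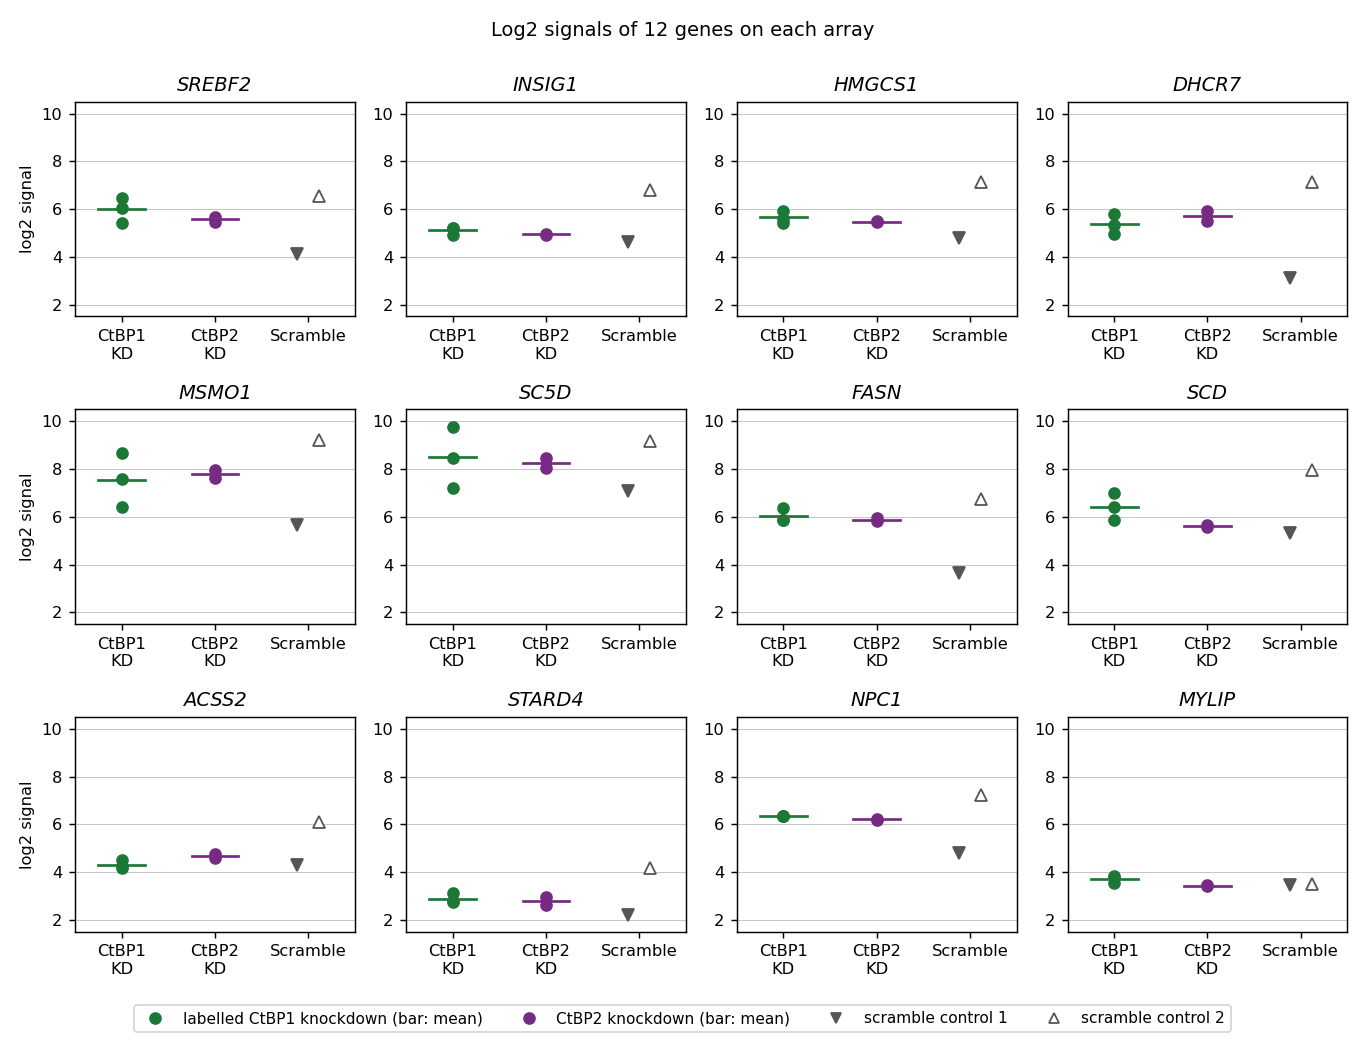
Log2 signals of 12 genes on each array, with the clones labelled CtBP1 knockdown, the CtBP2 knockdown clones and the scramble clones from left to right in each panel. Circles are single knockdown clones with a bar at the group mean, and triangles are scramble control 1 (filled, pointing down) and scramble control 2 (open, pointing up). The controls lie far apart in 11 panels, and together only for MYLIP.

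Where the controls differed by more than 1 log2 unit, with scramble control 2 higher (24 of the 35 genes, and 13% of all genes), the place of the knockdown clones in the gap varied from gene to gene. The median position was 55.5% for the clones labelled CtBP1 knockdown and 57.3% for the CtBP2 knockdown clones, against 82.3% and 87.9% over all genes with such a gap. ACSS2, SQLE and INSIG1 were closest to scramble control 1 for the clones labelled CtBP1 knockdown (0.125%, 14.3% and 22.6%), and SCD, INSIG1 and ACSS2 for CtBP2 knockdown (11.3%, 14.9% and 20%). FADS2, TM7SF2 and SREBF2 were closest to scramble control 2 for the clones labelled CtBP1 knockdown (94.5%, 80.9% and 76.4%), and FDPS, ACLY and TM7SF2 for CtBP2 knockdown (93.7%, 82% and 76.5%). These percentages set group means between 2 single control clones and have no test.

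**Figure D3:**
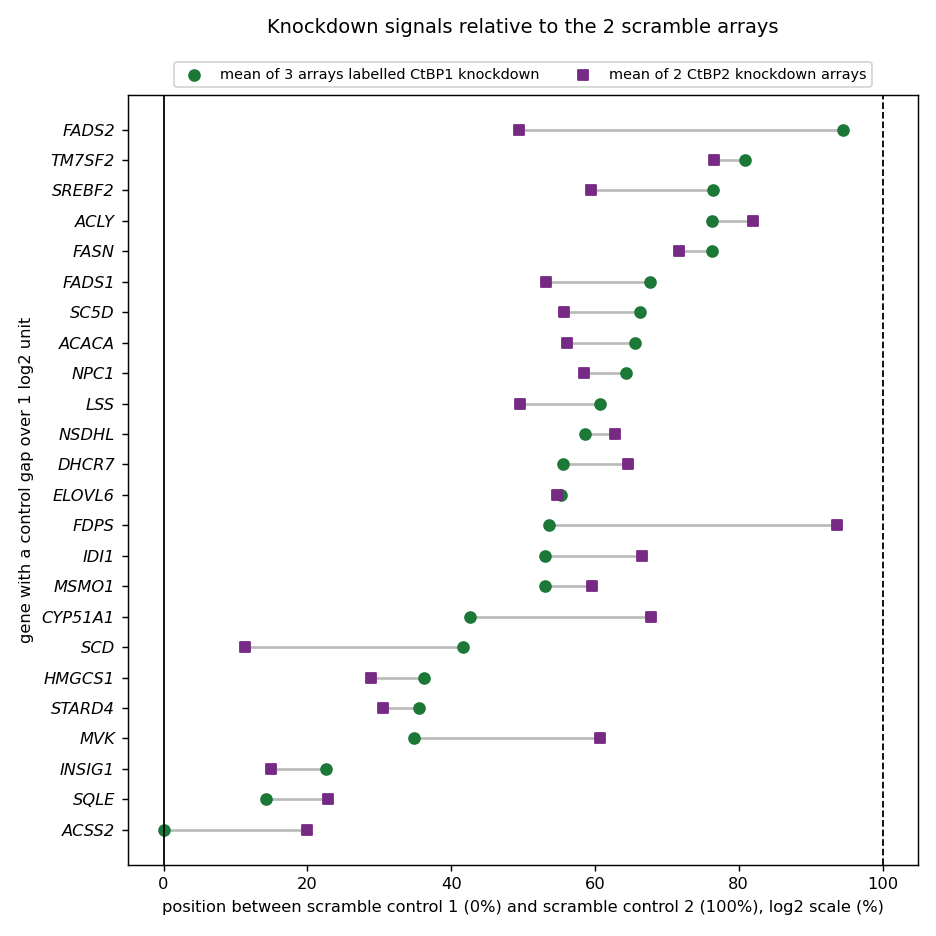
Position of the knockdown means for 24 genes whose scramble clones differ by more than 1 log2 unit, on a scale where scramble control 1 is 0% (solid line) and scramble control 2 is 100% (dashed line). Green circles are the mean of 3 clones labelled CtBP1 knockdown and purple squares the mean of 2 CtBP2 knockdown clones; the points run from about scramble control 1 (ACSS2) to near scramble control 2 (FADS2, FDPS).

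The clones labelled CtBP1 knockdown were first set against both scramble controls; the grouping is that of the labels, which the CTBP1 signal did not separate. None of the 35 genes passed: limma, a moderated linear model fitted to all genes, called 0 of 35 at a Benjamini-Hochberg adjusted p under 0.05, as it called 0 of 17958 (0%). At an unadjusted p under 0.05 it listed 0 of the 35 and 4.79% of all genes. Of the 35, 21 were higher (60%, where 49.1% of all genes were) and 14 lower than scramble, with a median log2 difference of 0.11, and all genes had a median of -0.0047. The members with the smallest p were GGPS1 (-0.40 ± 0.18, SE of the fit), ACSS2 (-0.90 ± 0.49), MYLIP (0.24 ± 0.13), FADS2 (0.68 ± 0.51), SQLE (-0.62 ± 0.48), SCAP (0.37 ± 0.33), ABCG1 (-0.14 ± 0.12) and TM7SF2 (0.53 ± 0.51), at limma adjusted p from 0.734 to 0.765. MYLIP alone had all 3 arrays above both controls (1 of 35, where 6.76% of all genes did), and 0 of the 35 lay below both (7.59% of all genes).

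With 1 control at a time most of the 35 took the opposite sign. Against scramble control 2 alone, 31 of the 35 were lower in the clones labelled CtBP1 knockdown, with a median of -0.71 (all genes -0.02). These differences all rest on the same single control clone. ACSS2 then differed by -1.80, INSIG1 by -1.70 and HMGCS1 by -1.49. Against scramble control 1 alone, 32 were higher, with a median of 0.87 (all genes 0.01). Among those 32 were FASN (2.37), DHCR7 (2.23), ACLY (1.93), SREBF2 (1.87) and NPC1 (1.56). Each of these fits takes the spread from the knockdown groups alone, while the controls themselves differed by a median of -1.81 (scramble control 1 minus scramble control 2).

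The CtBP2 knockdown clones were set against the same controls. Again 0 of the 35 genes passed in limma, where 1 of 17958 genes did (0.00557%), and at an unadjusted p under 0.05 it listed 0 of 35 and 10.2% of all genes. The median log2 difference was 0.06, with 19 higher (54.3%, where 47.2% of all genes were) and 15 lower, and NR1H3 at 0.00. All genes had a median of -0.02. The smallest p were those of SREBF1 (-0.61 ± 0.29), NPC2 (0.36 ± 0.22), SCAP (0.57 ± 0.36), FDPS (0.54 ± 0.39), SCD (-1.03 ± 0.84), INSIG1 (-0.77 ± 0.65), ABCG1 (-0.16 ± 0.14) and GGPS1 (-0.22 ± 0.20), at limma adjusted p from 0.521 to 0.646. SREBF1, EBP and ABCG1 had both CtBP2 knockdown clones below both controls (3 of 35, where 21.7% of all genes did), and NPC2 above both (1 of 35, against 19.3%). For the dim ABCG1 this rests on 1.787 and 1.804 in the CtBP2 knockdown clones against 1.808 on scramble control 2.

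The sign again followed the control. Against scramble control 2 alone, 31 of the 35 were lower in the CtBP2 knockdown, with a median of -0.79. An unadjusted p under 0.05 was reached by 18 on the lower side, as by 5.3% of all genes, and 0 passed the adjusted threshold, with 0.18 as the smallest adjusted p. SCD differed by -2.37, INSIG1 by -1.86, HMGCS1 by -1.66 and SREBF1 by -1.07. Against scramble control 1 alone, 28 were higher, with a median of 0.76 (all genes 0). Among those 28 were DHCR7 (2.59), FASN (2.22), ACLY (2.08), CYP51A1 (2.07) and IDI1 (1.88). The comparisons of the 2 knockdowns with scramble share the controls, so their likeness is no independent evidence.

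The knockdowns were also set against each other, which leaves the scramble clones out of the difference and uses them only for the estimate of spread. Where the controls lie far apart, their gap enters that estimate and enlarges the standard errors and p-values of this comparison. None of the 35 genes passed (limma, 0 of 35 and 0% of all genes, with 0 of 35 and 7.77% at an unadjusted p under 0.05). The median of the clones labelled CtBP1 knockdown minus CtBP2 knockdown was 0.01, as it was over all genes, and 20 of the 35 were above 0 (57.1%, against 53.1% of all genes). SCD differed by 0.81 ± 0.77 and FADS2 by 0.69 ± 0.51, with all 3 clones labelled CtBP1 knockdown above both CtBP2 knockdown clones. MYLIP (0.28 ± 0.13) and SREBF1 (0.35 ± 0.27) were separated the same way, and EBP (0.36 ± 0.28) overlapped. FDPS (-0.49 ± 0.35) was lower and separated, and NPC2 (-0.35 ± 0.20) and GGPS1 (-0.19 ± 0.18) overlapped. The limma adjusted p of these 8 ran from 0.71 to 0.957. In all, 7 of the 35 were separated on the higher side (20%, where 16.2% of all genes were) and 5 on the lower side (14.3%, against 15.8%), shares close to those of all genes. The 7 were SREBF1, SCD, FADS1, FADS2, NPC1, ABCG1 and MYLIP, and the 5 were MVK, MVD, FDPS, CYP51A1 and ACSS2. The dim ABCG1 was separated by very little, with a difference of 0.013. Fitted in the 5 knockdown clones alone, 5 of the 35 had an unadjusted p under 0.05, as had 2552 of the 17958 genes, a like share, and none passed, with FDPS at the smallest adjusted p of 0.224.

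**Figure D4:**
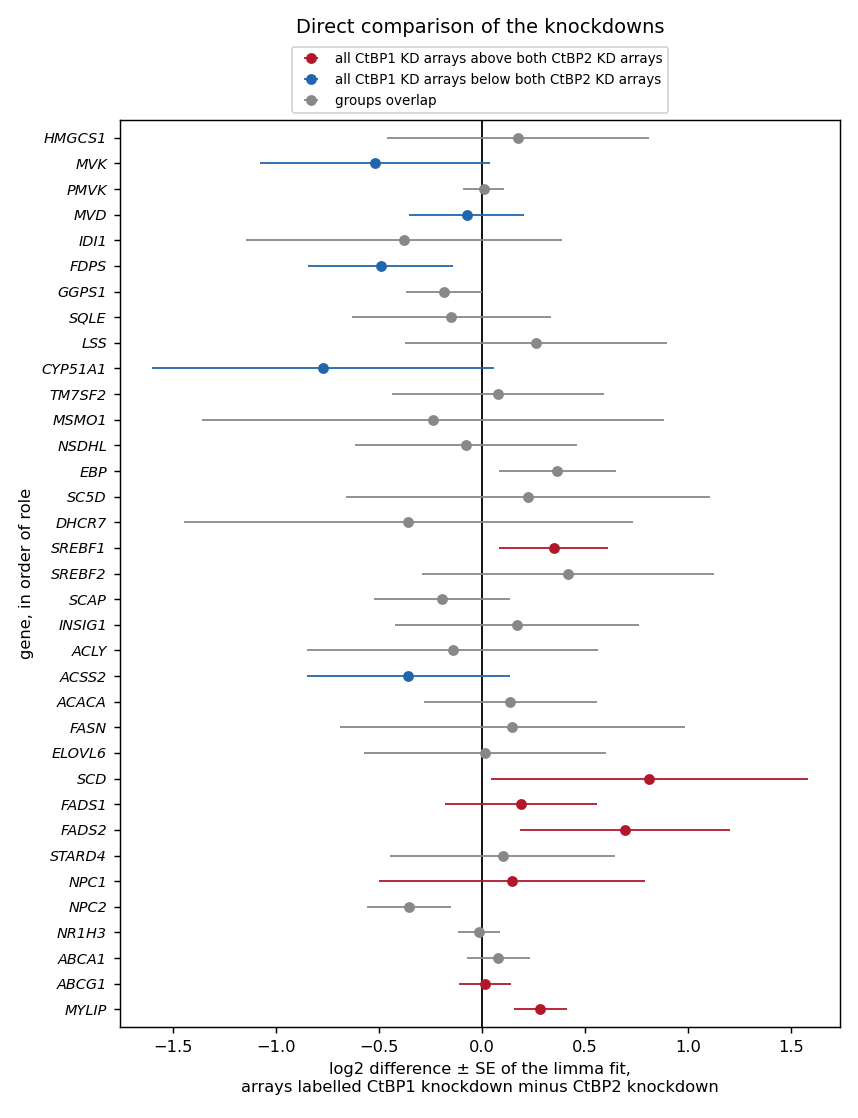
Log2 difference of the clones labelled CtBP1 knockdown minus the CtBP2 knockdown clones for 35 genes in order of role, with bars of ± 1 SE of the limma fit. The SE includes the spread between the scramble clones. Red and blue points are genes whose groups do not overlap (7 higher and 5 lower in the clones labelled CtBP1 knockdown), grey points overlap; differences run from -0.77 (CYP51A1) to 0.81 (SCD).

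Further genes of the pathway were read as lists. None of their members passed in any of the 3 comparisons. Of 10 genes of SREBP processing and sterol-regulated degradation, 7 were higher and 3 lower in the clones labelled CtBP1 knockdown than on scramble (median 0.18), and 10 were higher in the CtBP2 knockdown (median 0.18). Against scramble control 2 alone the medians were 0.05 and 0.0092, and against scramble control 1 alone 0.30 and 0.52. UBE2G2, a ubiquitin-conjugating enzyme of ER degradation, had 6.63, 6.21 and 6.29 in the clones labelled CtBP1 knockdown and 6.30 and 6.33 in the CtBP2 knockdown clones, against 3.69 and 6.35 in the scramble clones. Its signal was thus low on scramble control 1 alone. In the direct comparison ERLIN1, an ER protein that takes part in sterol-regulated degradation, differed by -0.58 ± 0.25.

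Of 10 genes of the isoprenoid, ubiquinone and prenylation branch, 8 were higher and 2 lower in the clones labelled CtBP1 knockdown (median 0.27), and 6 and 4 in the CtBP2 knockdown (median 0.19). The sign turned with the control: the medians were -0.30 and -0.33 against scramble control 2 alone, and 1.04 and 0.94 against scramble control 1 alone. PDSS1, which builds the ubiquinone side chain, had 5.31, 5.23 and 4.83 in the clones labelled CtBP1 knockdown and 4.83 and 5.66 in the CtBP2 knockdown clones, against 3.76 and 4.49 in the scramble clones, above both controls on each knockdown array. FNTA, the shared alpha subunit of farnesyl and geranylgeranyl transferase, had 6.43, 6.56 and 6.46 in the clones labelled CtBP1 knockdown and 6.48 and 6.26 in the CtBP2 knockdown clones, against 6.78 and 6.82 in the scramble clones, below both controls on each. Of all genes, 6.76% lay above both controls in the clones labelled CtBP1 knockdown and 19.3% in the CtBP2 knockdown. Below both controls lay 7.59% and 21.7%. The differences of PDSS1 were 1.00 ± 0.33 and 1.12 ± 0.37 and those of FNTA -0.32 ± 0.12 and -0.43 ± 0.13, with limma adjusted p from 0.403 to 0.734. With single clones left out, the differences of PDSS1 ran from 0.63 to 1.36 and from 0.71 to 1.53, the lowest without scramble control 1 for the clones labelled CtBP1 knockdown and without clone 2 for the CtBP2 knockdown.

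Sterol uptake, esterification and trafficking was a list of 14, with 9 higher and 5 lower in the clones labelled CtBP1 knockdown (median 0.15) and 10 and 4 in the CtBP2 knockdown (median 0.30). Against scramble control 2 alone these medians were -0.05 and 0.04, and against scramble control 1 alone 0.50 and 0.48. VLDLR, the very low density lipoprotein receptor, had 3.23, 2.95 and 3.22 in the clones labelled CtBP1 knockdown and 3.76 and 3.74 in the CtBP2 knockdown clones, with 3.38 and 3.35 in the scramble clones. The direct difference was -0.62 ± 0.13 (limma adjusted p = 0.291), and the groups did not overlap, as for 15.8% of all genes on the lower side. LRP8, a related receptor, differed by -0.37 ± 0.11 in the same direction (limma adjusted p = 0.487). SOAT1, which esterifies cholesterol, had 5.08, 4.91 and 4.69 in the clones labelled CtBP1 knockdown and 5.80 and 5.48 in the CtBP2 knockdown clones, against 3.38 and 5.08 in the scramble clones. Both CtBP2 knockdown clones thus lay above both controls, as for 19.3% of all genes. Clone 1 labelled CtBP1 knockdown was level with scramble control 2. STARD3, a sterol carrier of late endosomes, had 8.05, 7.84 and 8.56 in the clones labelled CtBP1 knockdown and 7.78 in both CtBP2 knockdown clones, against 7.10 and 7.78 in the scramble clones. For the clones labelled CtBP1 knockdown its difference was 0.71 ± 0.28, with 0.37 against scramble control 2 alone and 1.05 against scramble control 1 alone.

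Of 12 further fatty acid and lipid genes, 8 were higher and 4 lower in the clones labelled CtBP1 knockdown (median 0.26), and 10 and 2 in the CtBP2 knockdown (median 0.50). All 12 were lower in scramble control 1 than in scramble control 2, and the sign turned with the control: the medians were -0.15 and -0.15 against scramble control 2 alone, and 1.10 and 1.29 against scramble control 1 alone. TECR, the reductase that completes fatty acid elongation, had 8.13, 7.98 and 8.53 in the clones labelled CtBP1 knockdown and 7.39 and 7.22 in the CtBP2 knockdown clones, against 5.62 and 7.61 in the scramble clones. ME1, the malic enzyme that supplies NADPH, had 5.22, 3.72 and 4.27 in the clones labelled CtBP1 knockdown and 5.71 and 5.45 in the CtBP2 knockdown clones, against 3.33 and 4.56 in the scramble clones. TECR was thus highest in the clones labelled CtBP1 knockdown and ME1 in the CtBP2 knockdown clones, and neither passed. The direct difference of ME1 was -1.17 ± 0.53 (limma adjusted p = 0.705). Of 10 liver X receptor partners and targets, 5 were higher and 5 lower in the clones labelled CtBP1 knockdown (median -0.03), and 4 and 6 in the CtBP2 knockdown (median -0.11). Against scramble control 2 alone these medians were -0.09 and -0.15, and against scramble control 1 alone -0.11 and -0.13. CYP27A1, which makes an oxysterol that activates these receptors, ran from 1.55 to 1.74 in the knockdown clones, against 2.20 and 1.71 in the scramble clones. It was dim, with signals inside the 1.09 to 3.13 of the markers of other cell types.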

How the data were processed

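Per the submitters' processing notes, the authors made the deposited log2 signals with Affymetrix Expression Console and RMA, which corrects background, equalises probe signals across arrays and summarises probes per transcript cluster. Versions and genome build are not given in the sources used here. Arrays have no read depth, so their number limits the precision. The labels name a column kit for RNA extraction and the design text TRIzol, and which was used is not settled here. Groups and replicate numbers came from the sample titles.

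Of 33297 clusters, 19181 have exactly 1 symbol in GEO's platform annotation, 2055 several, and 12061 are unnamed here. Symbols were updated through Entrez identifiers with RefSeq (GRCh38.p14) for 17930 of 17958 genes; 895 had several clusters, of which the brightest by mean was used. CYP51A1, FDPS and SCD have near-identical copies, so probes may mix genes. Identical values on 2 or more arrays occurred for 7180 genes, 11 of them members, which can understate a spread.

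The 3 group means were fitted to 7 arrays with limma 3.58.1 in R 4.3.3 (lmFit, default eBayes, 4 residual degrees of freedom), two-sided, with Benjamini-Hochberg adjustment over all genes within a comparison and a threshold of 0.05. The fit was checked on simulated data, where each gene had independent normal noise of the same spread on every array. That check cannot show how the fit behaves where the controls spread more than the knockdown groups. The members, lists and tests were chosen with earlier results of these data known, so lists have no test. Differences with errors are given for the 8 members with the smallest p per comparison, and at most 2 genes of each other list. Alternatives were other normalizations, filters, cluster rules and variance models, weights per array, a replicate block, and fits without 1 array. Promoter motifs were chosen with their matches known. Figures were drawn with matplotlib 3.10.9.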

Additional observations from a re-analysis of the deposited data

How the results depend on the processing

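The limits are the number of arrays and the gap between the controls. Of the 3 medians over the 35 genes, those of the comparisons with scramble control turned with the control kept: with each array left out in turn they ran from -0.71 to 0.87 for the clones labelled CtBP1 knockdown and from -0.79 to 0.76 for the CtBP2 knockdown, with the low end without scramble control 1 and the high end without its partner, scramble control 2. The direct median ran from -0.022 to 0.14, the highest without clone 2 labelled CtBP1 knockdown. Genes called over the whole table numbered 0 to 3262, 0 to 3952 and 0 to 0 in the 3 comparisons, the high counts without scramble control 2. The 1 gene called for the CtBP2 knockdown became 0 under quantile normalization, median centring, centring with scaling, robust eBayes, a fit on only the groups compared, array weights and the replicate block, and 272 genes (0 of the 35) were called in the direct comparison with array weights. Leaving out single arrays gave differences of -1.49 to 0.25 for SQLE, -0.33 to 1.40 for TM7SF2, -0.12 to 0.87 for SCAP, -1.80 to 0.00227 for ACSS2, -0.085 to 1.45 for FADS2, -0.29 to 0.000266 for ABCG1 and -0.59 to 0.093 for CTBP1 on the clones labelled CtBP1 knockdown. For the CtBP2 knockdown they were -0.078 to 1.15 for FDPS, -0.44 to 0.012 for GGPS1, -1.86 to 0.33 for INSIG1, -2.37 to 0.30 for SCD and -0.033 to 2.62 for UBE2G2. ABCG1 also turned sign with centring and scaling (0.028 for the clones labelled CtBP1 knockdown and 0.11 for the CtBP2 knockdown) and, for the CtBP2 knockdown, with quantile normalization (0.013), and NPC2 with centring and scaling (-0.039). With array weights the direct difference of VLDLR passed (-0.60, limma adjusted p = 0.0469). The cause was not tested. The median of scramble control 1 minus scramble control 2 over the 35 genes was -1.81 as deposited (all genes -0.02). It was -1.61 after quantile normalization (all genes -0.14), -2.12 after centring (-0.32) and -1.52 after centring with scaling (-0.32). Without genes that repeat a value it was -2.06 over 24 of the 35 (all genes kept -0.17). Without the dimmest 25% of genes it was -1.88 over 34 of the 35 (all genes kept -0.24). The replicate numbers share only a number: the difference of array 1 minus array 2 correlated over genes at -0.25 between scramble and the clones labelled CtBP1 knockdown, -0.03 between scramble and CtBP2 knockdown and 0.10 between the knockdowns, and the replicate block gave medians of 0.07, 0.06 and -0.02 over the 35 genes with none called.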
